A study of Mus musculus with 12 samples.

Results

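Prostaglandin synthesis and receptor genes were followed in the mouse uterus and oviduct during preimplantation pregnancy, in mice given excess estradiol (E2) or oil. The set lists 10 genes by name, and 9 of them (Ptgs2, Ptges, Ptgis, Hpgd, Ptger2, Ptger3, Ptger4, Ptgfr and Ptgir) had a probe set among the 19938 genes of the array. Each had a single probe set, so no choice between probe sets was needed. The cyclooxygenase Ptgs1 had no probe set in the gene table used here, and its level was not analysed here. Mice received E2 at 10 µg/kg in sesame oil, or 100 µl of the oil alone (0 µg/kg), under the skin once a day from day 0.5 to day 2.5 after coitus. Tissues were collected on day 3.5, flushed, and measured on Affymetrix gene arrays carrying 1 biotin-labelled RNA each. Uterus and oviduct from either treatment made 4 groups, each of 3 arrays labelled as biological replicates. The labels name neither the strain nor the age of the mice, and do not say whether a uterus and an oviduct of the same number came from one mouse.

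Prostaglandins are short-lived lipid signals. Phospholipases A2 release arachidonic acid from membranes, the cyclooxygenases Ptgs1 and Ptgs2 turn it into an unstable endoperoxide, and terminal synthases such as Ptges and Ptgis make prostaglandin E and prostacyclin from that. The enzyme encoded by Hpgd inactivates prostaglandins of the E and F types. Membrane receptors read the signals, those encoded by Ptger2, Ptger4 and Ptgir raising cyclic AMP, that encoded by Ptger3 mostly lowering it, and that encoded by Ptgfr raising calcium. In the reproductive tract the pathway is known for its parts in implantation, blood flow, and the contraction and relaxation of uterine and oviductal muscle.

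The labelled tissues matched their markers. In oil mice 4 of 4 uterine Hox genes of the marker list were lower in oviduct (median log2 difference -3.34) and 7 of 7 measured oviduct and cilia markers were higher (median 2.39). Both oil arrays numbered 3 stood apart from their groups. Set against the rest of its group, the uterine one had 177 genes displaced by over 1 log2 unit and the oviductal one 302, while the remaining arrays had 8 to 62. The 6 measured markers of the corpus luteum, the hormone-making body of the ovary, had a summed intensity of 5322 on the oil oviduct array numbered 3, against 502.3 and 611.2 on the other oil oviduct arrays. Single-gene calls that end without both of those arrays are named where they occur. As a rough floor of the array, the Y-linked genes, which female tissue lacks, read at most 7.50. Sry alone set that level, with the others at or below 4.40, and it lay above the median gene of every array (6.88 to 6.93). A fold below 7.50 is uncertain in size, also for listed genes where this is not repeated. The RNA came from whole flushed tissue, so fewer cells of a type and less RNA per cell cannot be told apart.

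E2 changed most of these genes in the uterus. Of the 9 measured genes 7 passed the test there, with 4 higher (Ptgs2, Ptgis, Ptger3 and Ptgir) and 3 lower (Ptgfr, Ptger2 and Ptger4). Calls rest on limma fitted over all genes with Benjamini-Hochberg adjustment and a threshold of 0.05, and values are log2 intensities unless another scale is named. Among all genes that test called 26.7% in the uterus, 12.4% higher and 14.3% lower. The members were chosen with earlier results of these data known, so these shares are no test of the set. The median change of the 9 genes was 0.27, beside -0.001 over all genes, and the changes ran from -1.13 to 1.08. Without both oil arrays numbered 3 the counts were again 4 higher and 3 lower, with Hpgd called and Ptgir not. The uterine arrays of E2 and oil mice did not overlap for any of the 9 genes, which held for 40.5% of all genes.

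In the oviduct 0 of the 9 genes passed limma's adjusted test, where 0.291% of all genes did. At an unadjusted p under 0.05 there were 4 of 9 (Ptgs2, Ptges, Ptgis and Ptger2), beside 10.5% of all genes, and without both oil arrays numbered 3 the adjusted test called 2, Ptgis higher and Ptger2 lower. The arrays of E2 and oil oviducts did not overlap for 3 of the 9 genes (Ptgs2, Ptgis and Ptger2), beside 17.4% of all genes. Their median change was 0.03, beside -0.006 over all genes.

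**Figure D1:**
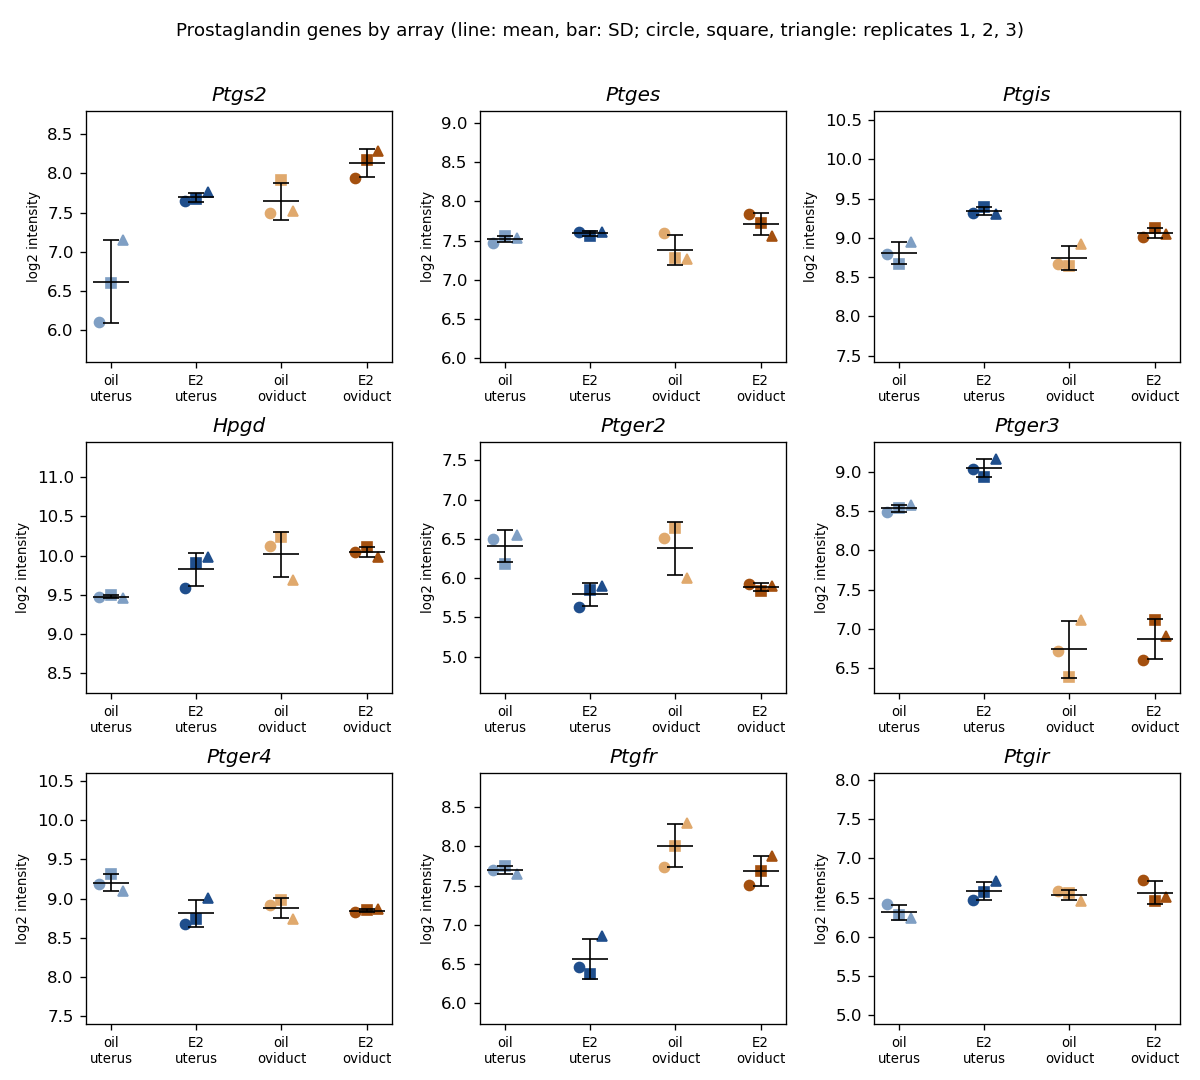
Log2 intensity of the 9 measured prostaglandin genes (vertical axes, each spanning the same number of log2 units) on the 12 arrays, by tissue and treatment. Points are arrays, the horizontal line is the group mean and the bar the SD (n = 3); Ptgs2 and Ptgfr move apart in the uterus, and Ptger3 sits lower in oviduct than in uterus on every array.

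Promoter sequence is shown for the synthase and the receptors with the largest differences, Ptgs2 and Ptgfr for the uterine response and Ptger3 for the gap between tissues. Each run gives the 250 bases before the gene start, 5′ to 3′ on the gene's strand, from RefSeq on GRCm38.p6, with matches to the searched motifs in capitals.
Ptgs2, chr1:150099781-150100030 (+ strand): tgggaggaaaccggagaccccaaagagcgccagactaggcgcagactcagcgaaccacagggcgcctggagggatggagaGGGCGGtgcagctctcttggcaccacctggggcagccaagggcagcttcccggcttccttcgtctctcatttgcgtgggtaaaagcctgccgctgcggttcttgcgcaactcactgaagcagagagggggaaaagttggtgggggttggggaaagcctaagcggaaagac
Ptgfr, chr3:151837529-151837778 (- strand): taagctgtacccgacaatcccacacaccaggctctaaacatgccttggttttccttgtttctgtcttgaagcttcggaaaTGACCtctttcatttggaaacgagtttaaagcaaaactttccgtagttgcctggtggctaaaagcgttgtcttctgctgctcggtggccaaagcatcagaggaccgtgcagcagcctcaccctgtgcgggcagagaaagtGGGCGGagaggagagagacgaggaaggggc
Ptger3, chr3:157566626-157566875 (+ strand): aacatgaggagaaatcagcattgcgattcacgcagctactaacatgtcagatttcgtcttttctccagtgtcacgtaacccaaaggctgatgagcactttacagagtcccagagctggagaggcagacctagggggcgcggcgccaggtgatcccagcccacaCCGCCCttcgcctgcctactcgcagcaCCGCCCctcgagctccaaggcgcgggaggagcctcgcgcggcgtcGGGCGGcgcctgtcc
RefSeq promoters were found for 8 of the 9 measured genes (not Ptgis) and searched on both strands. The capitals in Ptgs2 are a GC box (GGGCGG) at -170 to -165 from the start. In Ptgfr they are an estrogen response half-site (GGTCA, here on the opposite strand) at -170 to -166 and a GC box at -30 to -25. In Ptger3 they are 3 GC boxes. A GC box was found in 7 of the 8 promoters, all but that of Ptger2, and in 32.7% of the 32851 promoters of the table over the same length. The half-site was found in 2 of the 8 (Ptges and Ptgfr) and in 35.2% of all. The full estrogen response element, GGTCANNNTGACC, which contains the half-site on both strands, was in 0 of the 8 windows and in 0.0639% of all. A TATA box (TATAAA) was in 0 of 8 windows and 12.4% of all, and a CCAAT box (CCAAT) in 2 of 8 (Ptger2 and Ptger4) and 33.8%. The short form of the cAMP response element (TGACG) was in 0 of 8 and 17.8%, and the full element that contains it (TGACGTCA) in 0 of 8 and 1.55%. The E box (CACGTG) was in 0 of 8 and 6.02%, and the AP-1 site (TGANTCA) in 0 of 8 and 6.75%. These are letter matches in 1 window per gene, and sequence outside that window, also just past the RefSeq start, was not searched. A count of 0 therefore does not show that a gene, Ptgs2 included, lacks the motif near its start.

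Among the enzymes, Ptgs2, the inducible cyclooxygenase that limits prostaglandin output in many tissues, had the largest rise. Its log2 intensity in oil uterus was 6.10, 6.60 and 7.16 on the arrays numbered 1 to 3, and 7.65, 7.68 and 7.76 in E2 uterus. The E2 arrays lay close together and above every oil array, while the oil arrays spread widely (SD 0.53, against 0.06). Ptgs2 rose by 1.08 log2 units (SE 0.21, limma adjusted p = 0.00278), a 2.11-fold difference. Leaving out any single array kept the call, with values from 0.82 (without oil uterus replicate 1) to 1.34 (without oil uterus replicate 3). All oil uterus arrays lay below the Y-linked level of 7.50. In the oviduct Ptgs2 was 7.49, 7.92 and 7.52 in oil mice and 7.94, 8.17 and 8.29 in E2 mice. All 3 E2 arrays lay above the oil arrays, by little for the oil array numbered 2. That difference of 0.49 (SE 0.21, adjusted p = 0.454) did not pass the test, and the effects in the tissues differed by -0.59 (95% interval -1.25 to 0.08, adjusted p = 0.278), taken as oviduct minus uterus. Without oil uterus replicate 3 that difference passed, at -0.85 (adjusted p = 0.0327).

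The prostacyclin synthase Ptgis rose in the uterus too. It read 8.80, 8.66 and 8.95 in oil uterus and 9.31, 9.40 and 9.31 in E2 uterus. The groups were clearly separate, and the rise was 0.54 (SE 0.09, adjusted p = 0.0011) and kept its call in all 12 fits with an array left out. In the oviduct the oil arrays read 8.67, 8.64 and 8.92 and the E2 arrays 9.01, 9.13 and 9.04. The E2 arrays were again the higher ones, with the oil array numbered 3 close to them. The difference was 0.32 (SE 0.09, adjusted p = 0.245), and without both oil arrays numbered 3 it was 0.41 and passed the test (adjusted p = 0.0416). The difference of the effects did not pass the test (-0.22, 95% interval -0.50 to 0.07). In the uterus, 3 of 12 smooth muscle markers rose (9 without both oil arrays numbered 3), and of 10 endothelial markers 8 fell and 1 rose, both types being known sites of Ptgis. Their summed intensities were 17340 to 23800 in oil and 23650 to 24420 in E2 uterus for smooth muscle, with the oil array numbered 3 the highest oil value, and 6296 to 7211 against 4343 to 4654 for endothelium. The part of either in the Ptgis result was not tested.

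The microsomal prostaglandin E synthase Ptges and the inactivating dehydrogenase Hpgd did not pass the test in either tissue. Ptges read 7.48, 7.55 and 7.53 in oil uterus and 7.61, 7.55 and 7.61 in E2 uterus, a difference of 0.07 (95% interval -0.14 to 0.28, adjusted p = 0.68). The groups touched without overlapping. In the oviduct its values were 7.60, 7.28 and 7.27 with oil and 7.84, 7.72 and 7.56 with E2, a difference of 0.32 (SE 0.10, adjusted p = 0.25) with 1 E2 array below the highest oil array. Hpgd read 9.47, 9.50 and 9.46 in oil uterus and 9.59, 9.91 and 9.99 in E2 uterus. The oil arrays were nearly equal and all lower, and the difference of 0.35 (SE 0.13) had an adjusted p = 0.0766. It passed the test without E2 uterus replicate 1 (0.47, adjusted p = 0.0281) or oil oviduct replicate 3 (0.35, adjusted p = 0.0179), without both oil arrays numbered 3 (0.34, adjusted p = 0.0431), and with quantile normalization (0.38, adjusted p = 0.0482) or array weights (0.41, adjusted p = 0.00154). Hpgd in the oviduct read 10.12, 10.24 and 9.70 with oil and 10.05, 10.11 and 9.99 with E2, a difference of 0.03 (95% interval -0.26 to 0.32) that was -0.13 without oil oviduct replicate 3. In the uterus 9 of 10 epithelial markers, from the cells known to carry Hpgd, rose, from a summed intensity of 4191 to 4888 in oil to 9025 to 10160 with E2. Whether this bears on the Hpgd values was not tested.

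Of the receptors, Ptgfr, which binds prostaglandin F and drives contraction and the regression of the corpus luteum, had the largest change. It read 7.70, 7.75 and 7.64 in oil uterus and 6.47, 6.37 and 6.86 in E2 uterus. The oil arrays lay close together and well above all E2 arrays. Ptgfr fell by 1.13 log2 units (SE 0.15, limma adjusted p = 2.3e-04), to a level 2.19-fold lower, and the call held in all 12 fits with an array left out (-1.28 to -1.03). The E2 mean of 6.57 lay below the Y-linked level. In the oviduct the values were 7.74, 8.001 and 8.29 with oil and 7.50, 7.69 and 7.88 with E2. The groups overlapped, and the difference was -0.32 (SE 0.15, adjusted p = 0.51). The highest oil value was that of the array with corpus luteum markers, a tissue known to carry this receptor. Its part in that value was not tested, and the E2 oviduct array numbered 3 was also the highest of its group. Without both oil arrays numbered 3 the oviductal difference was -0.18 (adjusted p = 0.789) and the uterine change -1.16 (adjusted p = 3.2e-04).

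Ptgfr was the 1 gene of the 9 whose response differed between the tissues by the test, where 11.5% of all genes were called. The oviduct effect minus the uterine effect was 0.81 (SE 0.22, adjusted p = 0.0333), and 0.98 (adjusted p = 0.0134) without both oil arrays numbered 3. With a single array left out the value ran from 0.68 to 0.96 and the call ended in 8 of 12 fits, those without oil uterus replicate 1 or 2, E2 uterus replicate 1 or 2, oil oviduct replicate 1 or 2, or E2 oviduct replicate 2 or 3, with adjusted p up to 0.0872. For Ptger4 the difference was 0.36 (adjusted p = 0.132), and it passed without E2 uterus replicate 3, at 0.46.

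Ptger2 and Ptger4, receptors for prostaglandin E that raise cyclic AMP, both fell in the uterus. Ptger2 read 6.50, 6.18 and 6.55 in oil uterus and 5.63, 5.86 and 5.90 in E2 uterus, and 6.51, 6.64 and 6.002 in oil oviduct against 5.93, 5.84 and 5.90 in E2 oviduct. Every E2 array lay below every oil array of its tissue, although on all 12 arrays the level was below the Y-linked bound of 7.50. The uterine fall was -0.62 (SE 0.15, adjusted p = 0.00994) and held in all 12 fits with an array left out. The oviductal difference was -0.50 (SE 0.15, adjusted p = 0.261). Without oil oviduct replicate 3, the lowest oil array, it was -0.69 and passed (adjusted p = 0.0427). The Ptger2 effects in the tissues differed by 0.12, oviduct minus uterus (95% interval -0.35 to 0.59, limma adjusted p = 0.814), which did not pass the test. Ptger4 read 9.19, 9.32 and 9.10 in oil uterus and 8.68, 8.75 and 9.01 in E2 uterus, a fall of 0.39 (SE 0.10, adjusted p = 0.0106) that held in all 12 fits. In the oviduct it read 8.92, 8.98 and 8.75 with oil and 8.83, 8.85 and 8.86 with E2, a difference of -0.03 (95% interval -0.25 to 0.18).

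Ptger3 and Ptgir also rose in the uterus, with calls that depended on single arrays. Ptger3, the prostaglandin E receptor found in uterine muscle among other cells, read 8.48, 8.55 and 8.58 in oil uterus and 9.04, 8.94 and 9.17 in E2 uterus. The groups were apart, and the rise was 0.51 (SE 0.16, adjusted p = 0.0367). Its call ended in 7 of 12 fits with an array left out, those without any 1 of the 6 uterine arrays or without E2 oviduct replicate 3 (adjusted p up to 0.112), with values of 0.45 to 0.57. Ptgir, the prostacyclin receptor, read 6.42, 6.28 and 6.24 in oil uterus and 6.47, 6.58 and 6.71 in E2 uterus. The lowest E2 array lay just above the highest oil array. The rise was 0.27 (SE 0.09, adjusted p = 0.0428), at levels below 7.50 in every group. It ended without oil uterus replicate 2 or 3, E2 uterus replicate 2 or 3, oil oviduct replicate 1 or 2, or E2 oviduct replicate 3 (adjusted p up to 0.144), and without both oil arrays numbered 3 (0.24, adjusted p = 0.112). In the oviduct Ptger3 changed by 0.14 (95% interval -0.22 to 0.49) and Ptgir by 0.03 (-0.17 to 0.23). The smooth muscle markers given above moved beside both uterine rises, and their part was not tested.

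**Figure D2:**
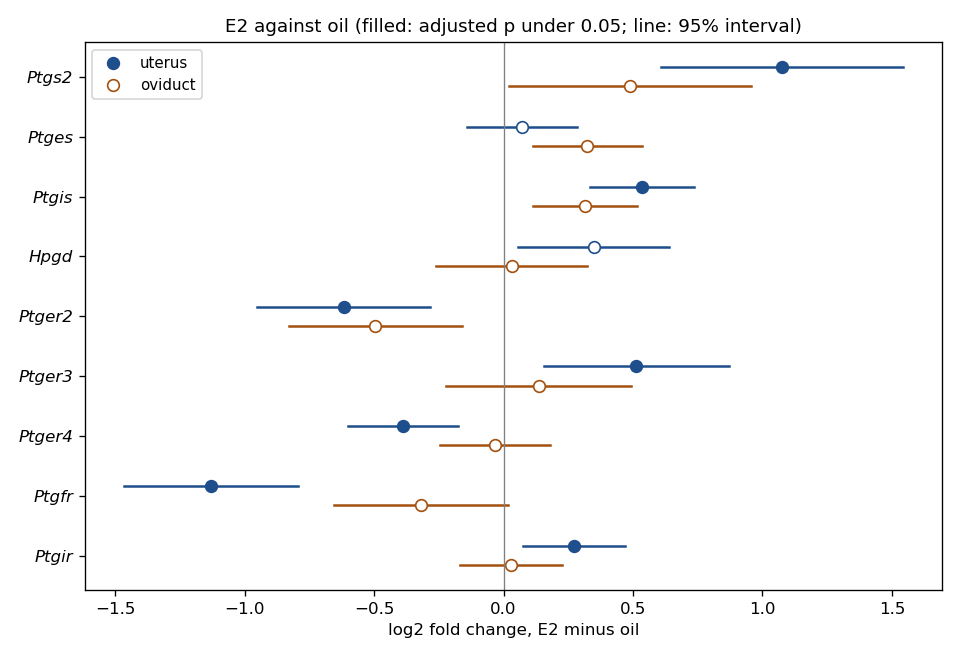
Log2 fold change of E2 against oil (horizontal axis) for each of the 9 genes in uterus and oviduct, with the 95% interval of the limma fit as a line. Filled points passed the adjusted test; 7 uterine and 0 oviductal points are filled.

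Some of the 9 genes also differed between the tissues. In oil mice 4 of the 9 passed the test between oviduct and uterus, a share near the 38.7% of all genes. Ptgs2 and Hpgd were higher and Ptger3 and Ptger4 lower in oviduct. Ptger3 had the widest gap. Its arrays read 6.71, 6.39 and 7.11 in oil oviduct and 6.60, 7.11 and 6.91 in E2 oviduct, all below 7.50, while every uterine array lay at 8.48 or above. Oviduct minus uterus came to -1.80 log2 units in oil mice (SE 0.16, adjusted p = 4.5e-06) and to -2.17 in E2 mice (SE 0.16, adjusted p = 1.4e-06). Ptgs2 was 1.02 higher in oil oviduct than in oil uterus (SE 0.21, adjusted p = 0.00234), and the difference in E2 mice was 0.44 (95% interval -0.03 to 0.90, adjusted p = 0.146). The latter passed without oil uterus replicate 3 (adjusted p = 0.0427). Hpgd was 0.54 higher in oil oviduct (SE 0.13, adjusted p = 0.00669) and 0.22 higher in E2 oviduct (adjusted p = 0.241). Ptger4 was lower in oil oviduct by a log2 difference of -0.32 (SE 0.10, adjusted p = 0.0209), a call that ended without oil uterus replicate 2 (-0.26) or oil oviduct replicate 3 (-0.25).

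In E2 mice 3 of the 9 genes passed between the tissues, a share near the 34.1% of all genes. Besides Ptger3 these were Ptgfr, higher in oviduct by 1.13 (SE 0.15, adjusted p = 1.5e-04), and Ptgis, at -0.28 (SE 0.09, adjusted p = 0.0345). The Ptgis call ended without any 1 of the E2 uterus arrays or without E2 oviduct replicate 1 or 3 (adjusted p up to 0.113). In oil mice Ptgfr differed by 0.31 (95% interval -0.03 to 0.65) and Ptgis by -0.06 (-0.26 to 0.14). These comparisons share their arrays with those of E2 against oil and are not independent of them. By group mean, Ptgs2 ran from oil uterus (6.62) through oil oviduct (7.64) and E2 uterus (7.70) to E2 oviduct (8.13), and Ptgfr from E2 uterus (6.57) through E2 oviduct (7.69) and oil uterus (7.70) to oil oviduct (8.01). The middle groups of each order lay within their SDs of each other.

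**Figure D3:**
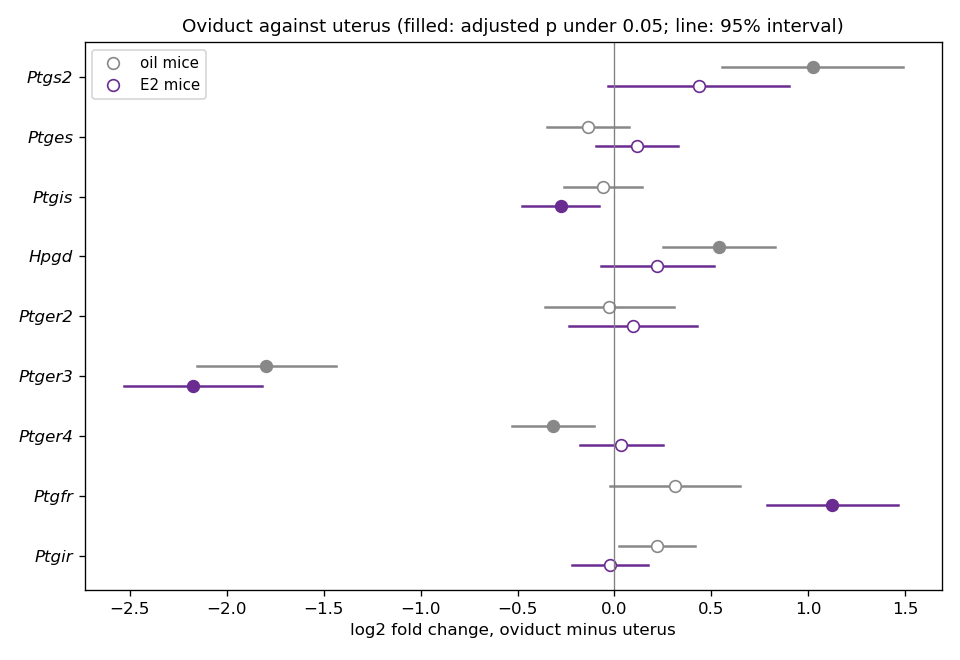
Log2 difference of oviduct minus uterus (horizontal axis) for each of the 9 genes in oil mice and in E2 mice, with 95% intervals of the limma fit. Filled points passed the adjusted test; Ptger3 lies farthest from 0 in both, at -1.80 and -2.17.

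Other enzymes of the pathway were read from lists of their own, whose counts stand beside the shares of all genes, 26.7% by the adjusted test and 36.1% at an unadjusted p under 0.05 in the uterus, and 0.291% and 10.5% in the oviduct. Of 19 measured genes listed as phospholipases A2, only some of which free the fatty acid substrate, 5 rose and 1 fell in E2 uterus (median 0.12). That share was near that of all genes. The secreted Pla2g2e rose by 1.42 (SE 0.12, adjusted p = 7.9e-06) and Pla2g2d by 1.09 (SE 0.12), Pla2g12a rose by 0.44 (SE 0.11), while Pla2g10 fell by 1.84 (SE 0.15). The cytosolic Pla2g4a, the main supplier for Ptgs2 in many cells, was at 0.12 (adjusted p = 0.694) in the uterus and -0.03 in the oviduct. Of this list 1 gene fell in the oviduct, Pla2g5 at -0.57 (SE 0.10, adjusted p = 0.0466), and the call held in 2 of 12 fits with an array left out, those without oil uterus replicate 3 or oil oviduct replicate 3. Pla2g5 rose in the uterus by 0.37 (SE 0.10), which ended without oil uterus replicate 3 (0.26) or E2 uterus replicate 1.

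Of 11 other terminal synthases listed, 9 were measured, and 2 rose and 2 fell in E2 uterus (median 0.09). Akr1b3 and Akr1b7 were not found under these names, so their levels were not analysed here. The hematopoietic prostaglandin D synthase Hpgds rose by 0.77 (SE 0.11, adjusted p = 3.6e-04), and was 2.49 log2 units higher in oil oviduct than in oil uterus. The thromboxane synthase Tbxas1 rose by 0.46 (SE 0.15, adjusted p = 0.0364), with the call held in 6 of 12 fits. It ended without oil uterus replicate 1 or 3, any E2 uterus array, or E2 oviduct replicate 3. The aldo-keto reductase Akr1b8 fell by 0.83 (SE 0.08), and Ptges3, a co-chaperone also described as a prostaglandin E synthase, by 0.59 (SE 0.12). Of 10 macrophage markers, of a cell type known for Hpgds and Tbxas1, 7 rose in E2 uterus (9 without both oil arrays numbered 3). Their summed intensities were 2466 to 2889 in oil and 4093 to 4556 in E2 uterus. Between the tissues of oil mice, 0 of these markers were higher and 2 lower in oviduct (median -0.19). The part of these cells in either gene was not tested.

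Among 10 genes of breakdown and transport, 4 rose and 1 fell in E2 uterus (median 0.24). The hydroxysteroid dehydrogenase Akr1c14 rose by 1.28 (SE 0.29), the organic anion carriers Slco4a1 by 0.73 (SE 0.14) and Slco3a1 by 0.36 (SE 0.10), and the cytochrome P450 gene Cyp4f13 by 0.34 (SE 0.07). The prostaglandin reductase Ptgr1, which acts after Hpgd, fell by 0.31 (SE 0.10, adjusted p = 0.046), a call held in 4 of 12 fits with an array left out (those without E2 uterus replicate 3, oil oviduct replicate 2 or 3, or E2 oviduct replicate 1), and that of Slco3a1 ended without oil uterus replicate 1 or 2 or E2 uterus replicate 3. The prostaglandin transporter Slco2a1, which brings prostaglandins to Hpgd inside the cell, was at -0.15 (adjusted p = 0.221) in uterus and was 1.52 higher in oil oviduct than in oil uterus (SE 0.08, adjusted p = 8.7e-08). Akr1c18 read 6.88 log2 units higher on the oil oviduct array numbered 3 than on the other oil oviduct arrays, beside its difference of -2.23 in oviduct (adjusted p = 0.645).

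Of 8 other receptors and receptor partners 2 rose and 2 fell in E2 uterus (median 0.12). Ptgdr2, a prostaglandin D receptor of leukocytes, rose by 0.67 (SE 0.08, adjusted p = 5.8e-05), and Pparg, a nuclear receptor that binds prostaglandin derivatives among other lipids, by 0.34 (SE 0.11). The nuclear receptors Ppara and Ppard fell by 0.27 (SE 0.07) and 0.24 (SE 0.07). Without both oil arrays numbered 3 the list had 1 higher and 0 lower, Ptgdr2 alone, with Pparg at 0.27, Ppara at -0.23 and Ppard at -0.16. With 1 array left out, Ptgdr2 kept its call in all 12 fits, Ppara in 10 (not without oil uterus replicate 3 or E2 uterus replicate 2), Ppard in 8 (not without oil uterus replicate 3 or any E2 uterus array) and Pparg in 5 (not without oil uterus replicate 1 or 3, any E2 uterus array, oil oviduct replicate 2 or E2 oviduct replicate 2). Of these 8 genes 0 passed limma's adjusted test in the oviduct, and 2 had an unadjusted p under 0.05.

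The lipoxygenase and leukotriene branch, which uses the same fatty acid, had 6 of 13 genes higher and 0 lower in E2 uterus (median 0.28). The lipoxygenases Alox12e and Alox15 rose by 1.14 (SE 0.12) and 0.75 (SE 0.14), Alox5ap, the protein that presents the fatty acid to Alox5, by 0.87 (SE 0.17), and Aloxe3 by 0.36 (SE 0.12), which kept its call in 5 of 12 fits (not without oil uterus replicate 2 or 3, any E2 uterus array, oil oviduct replicate 1 or E2 oviduct replicate 3). At an unadjusted p under 0.05 there were also 6 uterine genes, and the oviduct had 0 called and 3 at an unadjusted p under 0.05.

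Of 11 measured genes known to induce Ptgs2 elsewhere, 3 rose and 3 fell in E2 uterus (median -0.02). The cytokine Il1a rose by 3.52 (SE 0.31, adjusted p = 1.1e-05) from an oil mean of 3.97, far below the Y-linked level, the sphingosine kinase Sphk1 by 0.82 (SE 0.12) and the growth factor Hbegf by 0.58 (SE 0.14). The lysophosphatidic acid receptor Lpar3, which is upstream of Ptgs2 at implantation, fell by 1.35 (SE 0.11), from 7.28 to 5.93. Il6 fell by 0.87 (SE 0.22), from a mean of 3.45 to 2.58, below the 4.40 of the Y-linked genes other than Sry. Its call ended without oil uterus replicate 3 (-0.72). The receptor Egfr fell by 0.67 (SE 0.08). In the oviduct 0 of the 11 passed limma's adjusted test and 3 had an unadjusted p under 0.05.

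**Figure D4:**
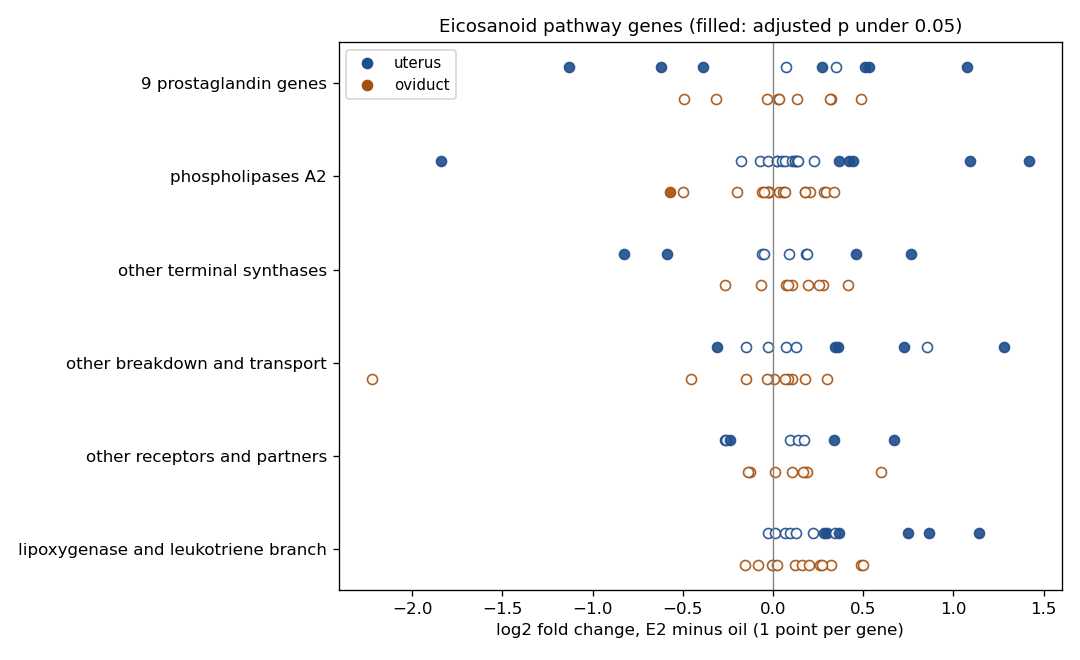
Log2 fold change of E2 against oil (horizontal axis) for the 9 prostaglandin genes and 5 further lists, 1 point per gene, uterus above oviduct in each pair of rows. Filled points passed the adjusted test; 1 oviductal point (Pla2g5) is filled, and the oviductal point near -2.2 is Akr1c18.

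The genes most like each member over the 12 arrays were sought among 4320 genes spanning at least 1 log2 unit, as a description in which tissue and treatment are shared by all. Ptger3 was closest to Ctla2a and Ctla2b (Pearson r = 0.99 with each over 12 arrays), a pair of near-identical copies. Ptgfr was closest to Azin1 and Tuba1a (0.959 with each), Ptger4 to Prelid2 (0.953) and the decoy receptor Il13ra2 (0.934), and Ptgs2 to Elapor1 (0.937) and Plekhb2 (0.936). Hpgd was closest to Hdac9 (0.934) and Hebp2 (0.919), and Ptger2 to Nde1 (0.917) and Ap1s3 (0.912). The closest to Ptges were Il10 (0.86) and Clec4a1 (0.857), to Ptgis Cbr2 (0.891) and Alpl (0.89), and to Ptgir Tm4sf5 (0.889) and Crybg1 (0.861). Among the members themselves, Ptgs2 and Hpgd moved together over the arrays (r = 0.765), and Ptgis ran opposite to Ptger2 (r = -0.804) and Ptgfr (r = -0.789).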

How the data were processed

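RNA from 12 flushed tissues (4 groups of 3) was measured on Affymetrix arrays. Per the submitters' processing notes the authors used RMA, whose version was not stated, and deposited an intensity for each of 35556 probe sets. The values are linear and were log2 transformed. A gene was read from its single-symbol probe set with the highest mean, which gave 19938 genes, named through a platform gene table (21789 probe sets with 1 symbol, 1621 with several, 12146 with none listed) and the RefSeq gene table of GRCm38.p6. No intensity filter was applied.

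The 4 group means were fitted by lmFit and eBayes of limma 3.58.1 (R 4.3.3), and two-sided p-values were adjusted over all genes by the Benjamini-Hochberg method. The script was tested on simulated data. Alternatives were each tissue alone, replicate blocks, a dim-gene filter, another probe set rule, other scalings, an offset, another variance model, array weights and each array left out. Leaving out both oil arrays numbered 3 was chosen after seeing the data. Members and lists were chosen with earlier results of these data known. Named genes are all members, up to 4 called genes of each list by size (2 as values where none), and the 2 genes most like each member. Pla2g4a, Slco2a1, Akr1c18, Ptgr1, Egfr, Hbegf and, for the uterus, Pla2g5 lie outside that rule and were named after their values were seen. The number of arrays limits the precision.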

Additional observations from a re-analysis of the deposited data

Results flagged for a closer look

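Ptgfr was the member whose E2 effect differed between the tissues by the interaction contrast of limma (oviduct minus uterus, 0.81, adjusted p = 0.0333). Of the other lists, with 19, 9, 10, 8, 13 and 11 measured genes, 13 genes were called by the same contrast. The effect was lower in oviduct than in uterus for Il1a (-3.31), Pla2g2e (-1.47), Akr1c14 (-1.43), Pla2g5 (-0.93), Ptgdr2 (-0.81), Slco4a1 (-0.76), Pla2g2d (-0.75), Sphk1 (-0.68) and Alox12e (-0.65). It was higher in oviduct, where the uterine change was a fall, for Pla2g10 (1.35), Lpar3 (0.99), Akr1b8 (0.93) and Egfr (0.44). For Pla2g5 the changes had opposite signs, 0.37 in uterus and -0.57 in oviduct. The contrast called 11.5% of all genes. With 1 array left out, the calls of Il1a, Pla2g2e, Pla2g5, Ptgdr2, Pla2g2d, Pla2g10, Lpar3 and Akr1b8 held in 12 of 12 fits. Those of Slco4a1, Sphk1 and Egfr held in 5 fits, those of Ptgfr and Alox12e in 4 and that of Akr1c14 in 2, the last with values from -1.83 to -1.18 and adjusted p up to 0.102. The call of Slco4a1 ended without oil uterus replicate 1 or 2, E2 uterus replicate 1 or 3, E2 oviduct replicate 2 or 3, or oil oviduct replicate 2. That of Sphk1 ended without oil uterus replicate 2, E2 uterus replicate 1 or 3, E2 oviduct replicate 2 or 3, or oil oviduct replicate 1 or 2. That of Egfr ended without oil uterus replicate 1 or 2, E2 uterus replicate 1 or 2, E2 oviduct replicate 2 or 3, or oil oviduct replicate 2, and that of Alox12e without oil uterus, E2 uterus or oil oviduct replicate 2 or 3, or E2 oviduct replicate 1 or 2. Akr1c14 kept its call only without oil uterus replicate 2 or oil oviduct replicate 3. Without both oil arrays numbered 3 the call of Alox12e ended (-0.51, adjusted p = 0.0981) and the other 13 held.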

How the results depend on the processing

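Of 998 member values under 23 alternatives, 922 kept their direction and side of the threshold, 34 lost the call, 21 gained one and 21 changed sign. Some alternatives could change little. Each member has a single probe set, so the other probe set rule left its values as they were. Leaving out an array outside a comparison kept the fold change and altered only its error and adjusted p. The uterine calls of Ptgs2, Ptgis, Ptger2, Ptger4 and Ptgfr held wherever the gene was tested (Ptger2 was left out by the dim-gene filter). Array weights gave 8214 called genes in uterus, 264 in oviduct, 4531 for the difference of effects and 10554 between tissues in E2 mice, with 2 members called in oviduct and 4 for the difference. Each tissue alone gave 10 oviductal genes, and the dim-gene filter 89. Without both oil arrays numbered 3 there were 121 oviductal genes, with 2 members called there and 2 for the difference. With 1 array left out the oviduct had 14 to 67 genes and 0 to 1 members called, and the difference of effects 0 to 2 members.

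Sign changes fell on members that were not called. With array weights the oviductal E2 effect was -0.067 for Hpgd and -0.02 for Ptgir, and the tissue difference of Ptger2 in oil mice 0.051. Without both oil arrays numbered 3 these were -0.13, -0.006 and 0.23, and the difference of effects of Ptger2 was -0.14. With 1 array left out the oviductal effect ran from -0.13 to 0.14 for Hpgd, -0.036 to 0.32 for Ptger3, -0.10 to 0.016 for Ptger4 and -0.052 to 0.082 for Ptgir. The difference of effects of Ptger2 ran from -0.068 to 0.25. Between tissues the ranges were -0.16 to 0.16 for Ptger2 and -0.15 to 0.013 for Ptgis in oil mice, and -0.031 to 0.14 for Ptger4 and -0.10 to 0.038 for Ptgir in E2 mice. The causes were not tested.

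The replicate block with the number as a fixed term gave 5318 uterine and 39 oviductal genes, with 6 members called in uterus (Ptgir lost, adjusted p = 0.0551). Ptgir was also lost with each tissue alone (0.0643), quantile normalization (0.0624) and the trended variance (0.0501). A random replicate block of treatment and number over both tissues gave 5341 and 57 genes and 7 members. The numbers were not taken as pairs because the labels do not say that equal numbers are one mouse. Deviations of equally numbered arrays correlated at 0.01 to 0.26 between tissues and at -0.20 to 0.19 between treatments. Such values cannot show whether the arrays share a mouse. The block changed no other call of a member.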
